A study of Rattus norvegicus with 6 samples.

Results

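A set of 5 immediate early response and polo-like kinase genes was followed in a mast cell line whose beta-glucan receptor was stimulated: Ier2, Ier3, Ier5, Plk2 and Plk3. They are 5 of the 14506 rat genes that the arrays measured with a probe set of exactly 1 gene symbol. Where a gene has several such probe sets, the one to be kept is chosen by the highest mean signal over the 6 arrays, but each of the 5 genes had 1 probe set, so that no choice arose. The genes were grouped by name and function, with earlier results of these arrays known, and their adjusted p-values below describe where each gene fell in the fit of the whole array.

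The cells were RBL-2H3, a rat basophilic leukaemia line used as a mast cell model, and every group overexpressed wild-type Dectin-1, a surface receptor for beta-glucans. There were 2 arrays of unstimulated control cells, 2 of cells given curdlan, an insoluble beta-glucan that activates the receptor, and 2 of cells pretreated with R406, an inhibitor of the tyrosine kinase Syk, and then stimulated with curdlan. The sources used here do not give the dose of either agent, the time of stimulation or whether the line was 1 clone. They also do not say if replicate arrays stem from separate cultures, so p-values rest on a spread between arrays that may be technical. No group received R406 without curdlan or curdlan without the introduced receptor. An effect of R406 on unstimulated cells and a block of the curdlan response therefore cannot be told apart, and neither can Syk and other kinases that R406 inhibits.

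Immediate early genes are transcribed within minutes of a stimulus without new protein synthesis, often through ERK and the transcription factors SRF and CREB, and many of their transcripts decay quickly. The IER name collects genes found through this behaviour: Ier2 and Ier5 encode related proteins, and Ier3 an unrelated one. Ier2 encodes a nuclear protein, and Ier5 one that in human cells binds the phosphatase PP2A and the heat shock factor HSF1. Ier3, also called Iex1, encodes a stress-inducible protein that in human cells is an ERK substrate and acts in cell survival. Plk2 (Snk) and Plk3 (Cnk or Fnk) encode serine/threonine kinases with a polo-box, and both were first known as inducible transcripts, Plk2 as a kinase induced by serum and Plk3 as one induced by growth factors and cytokines.

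The promoter sequences are shown here because immediate early genes can be switched on through sites close to the gene start. RefSeq promoters of the GRCr8 build, from 250 bases before the annotated gene start to 50 bases after it, were at hand for 4 of the 5 genes, Ier2, Ier5, Plk2 and Plk3. Each is printed 5′ to 3′ on the strand of the gene, and capitals mark the cAMP response element TGACGTCA, a CREB binding motif, and its shorter form TGACG, on either strand.
Ier2 promoter (chr19:40399123-40399422, plus strand): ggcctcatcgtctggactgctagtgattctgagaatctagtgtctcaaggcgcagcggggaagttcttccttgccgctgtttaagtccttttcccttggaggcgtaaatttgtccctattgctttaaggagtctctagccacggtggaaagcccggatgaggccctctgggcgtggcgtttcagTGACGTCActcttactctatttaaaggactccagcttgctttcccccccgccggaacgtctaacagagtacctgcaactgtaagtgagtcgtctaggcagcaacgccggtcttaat
Ier5 promoter (chr13:69822493-69822792, minus strand): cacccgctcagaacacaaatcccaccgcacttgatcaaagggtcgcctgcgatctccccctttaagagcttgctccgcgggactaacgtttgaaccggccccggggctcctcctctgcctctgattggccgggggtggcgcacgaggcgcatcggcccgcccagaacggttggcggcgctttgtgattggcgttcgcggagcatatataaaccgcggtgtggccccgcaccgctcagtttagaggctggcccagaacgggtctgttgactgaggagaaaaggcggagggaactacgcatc
Plk2 promoter (chr2:43702286-43702585, plus strand): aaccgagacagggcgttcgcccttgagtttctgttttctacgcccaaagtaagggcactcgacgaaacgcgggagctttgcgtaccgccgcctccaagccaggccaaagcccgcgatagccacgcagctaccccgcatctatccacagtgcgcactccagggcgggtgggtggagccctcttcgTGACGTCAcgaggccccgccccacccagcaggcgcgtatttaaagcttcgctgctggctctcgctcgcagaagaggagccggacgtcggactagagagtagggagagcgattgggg
Plk3 promoter (chr5:135848851-135849150, minus strand): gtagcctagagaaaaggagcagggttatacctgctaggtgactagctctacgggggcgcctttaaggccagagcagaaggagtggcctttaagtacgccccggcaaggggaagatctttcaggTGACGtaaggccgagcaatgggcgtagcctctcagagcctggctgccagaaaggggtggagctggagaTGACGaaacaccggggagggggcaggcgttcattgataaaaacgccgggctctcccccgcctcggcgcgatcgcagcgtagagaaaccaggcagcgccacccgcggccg

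The full element TGACGTCA was found in 2 of the 4 promoters, those of Ier2 and Plk2, in both from base -66 to base -59 relative to the gene start. In all, 1.83% of 33469 rat promoters of the same length held it. The shorter form TGACG lies within the full element, and outside it was found only in the Plk3 promoter, once from base -127 to -123 and once from base -59 to -55. It was held by 21.2% of all promoters. The Ier5 promoter held neither. It alone held the exact TATA box string TATAAA (in 14.2% of all promoters), from base -45 to -40. Other forms of the TATA box were not searched, and the Ier2 and Plk2 windows both hold TATTTAAA. Ier5 also held CCAAT from base -127 to -123 and again from base -65 to -61, both on the other strand. CCAAT was held by 37.5% of all promoters, and besides Ier5 by Plk2, from base 44 to 48. The Sp1 motif GGGCGG occurred in Ier5 and Plk2, against 33.1% of all promoters. None of the 4 windows held a match, on either strand, to the SRF CArG box, the NF-kB site, the AP-1 motif TGANTCA, the EGR motif GCGNGGGCG or the ETS motif CCGGAAG, which 1.64%, 2.34%, 7.33%, 4.98% and 8.75% of all promoters held. Matches are descriptions of letters in these windows and were not tested as binding sites. Sites outside the windows were not searched, so a missing match does not show that a gene lacks such a site.

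**Figure D1:**
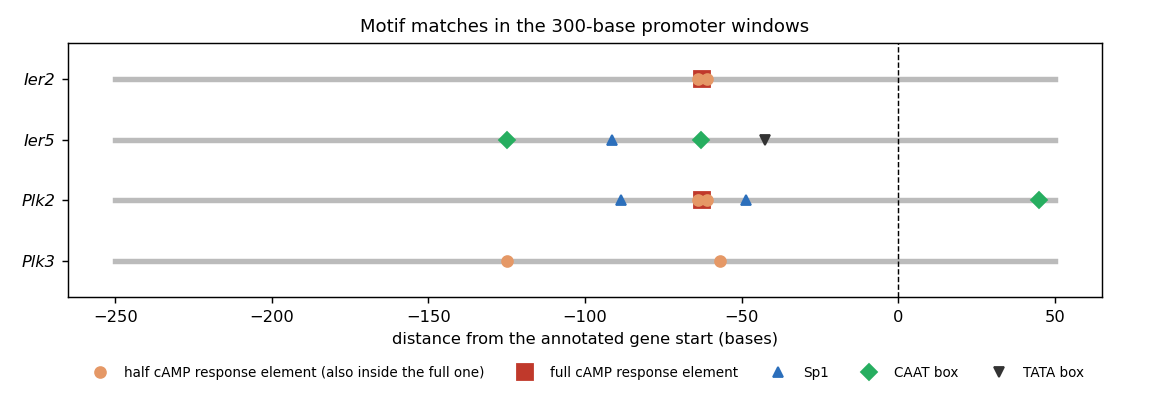
Motif matches in the 300-base promoter windows of Ier2, Ier5, Plk2 and Plk3. The horizontal axis is the distance from the annotated gene start in bases, the dashed line is the start, and each symbol is the centre of a match on either strand. The full cAMP response element lies at the same distance in Ier2 and Plk2.

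All values are log2 signals as normalized by the authors, and a difference is given as the difference of 2 group means with its standard error (SE) from 1 limma fit of all 6 arrays, with 2 arrays per group. A gene is said to have risen or fallen where its Benjamini-Hochberg adjusted p over all 29214 probe sets was under 0.05. Array medians lay between 7.204 and 7.241, and the 2 arrays of each group had a correlation of 0.9975 to 0.9981. The labelled cell type was checked with 13 mast cell markers, of which 10 lay above the median signal, against 2 of 10 macrophage and neutrophil markers, 1 of 7 lymphocyte markers and 4 of 9 fibroblast and epithelial markers. The log2 of the summed level of the macrophage and neutrophil markers was 11.27 to 11.29 in control, 11.42 to 11.52 with curdlan and 11.23 to 11.24 with R406 plus curdlan. It was highest with curdlan, and its part in the results was not tested. The brightest of these markers, Itgam, had means of 10.44, 10.77 and 10.41 in the same order. With curdlan Itgam differed by 0.33, and the other markers by -0.39 (Lyz2) to 0.05 (Cd14), with a list median of 0.02. The log2 of the summed level of the mast cell markers was 16.48 to 16.49 in control, 16.51 to 16.52 with curdlan and 16.51 with R406 plus curdlan. Whether signals near the bottom of the scale lie above background is not known, since no detection call was used here.

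With curdlan, 3 of the 5 genes rose and 0 fell, the 3 being Ier3, Plk3 and Ier5. The rise was 2.66-fold for Ier3, 2.02-fold for Plk3 and 1.64-fold for Ier5. Of all probe sets, 1.59% were called in this comparison, 1.04% as higher and 0.551% as lower. Under R406 plus curdlan, 4 of the 5, Ier2, Ier3, Ier5 and Plk3, were lower than with curdlan alone and 0 were higher, against 7.25% of all probe sets called, 3.23% lower and 4.02% higher. Against unstimulated control cells, Ier2, Ier3 and Plk3 were lower under R406 plus curdlan, 3 of the 5 genes, and 0 were higher, against 2.23% of all probe sets called, 0.791% lower and 1.44% higher. By an unadjusted p under 0.05 Ier2 was also higher with curdlan, and no other call was added among the 5. The share of all probe sets with an unadjusted p under 0.05 is not given here, so counts by it have no scale. Arrays did not overlap for 4 of the 5 genes with curdlan and again under R406 against curdlan, and for 3 of the 5 under R406 against control, as for 43.1%, 53.3% and 53.5% of all probe sets. The last comparison shares its arrays with the first 2, so the 3 are not independent. Of the 14506 named genes, 2.13% were called with curdlan, 9.18% under R406 against curdlan and 3.02% under R406 against control. The 5 genes were chosen with these comparisons known, and the shares of all probe sets and of named genes are printed for scale only.

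**Figure D2:**
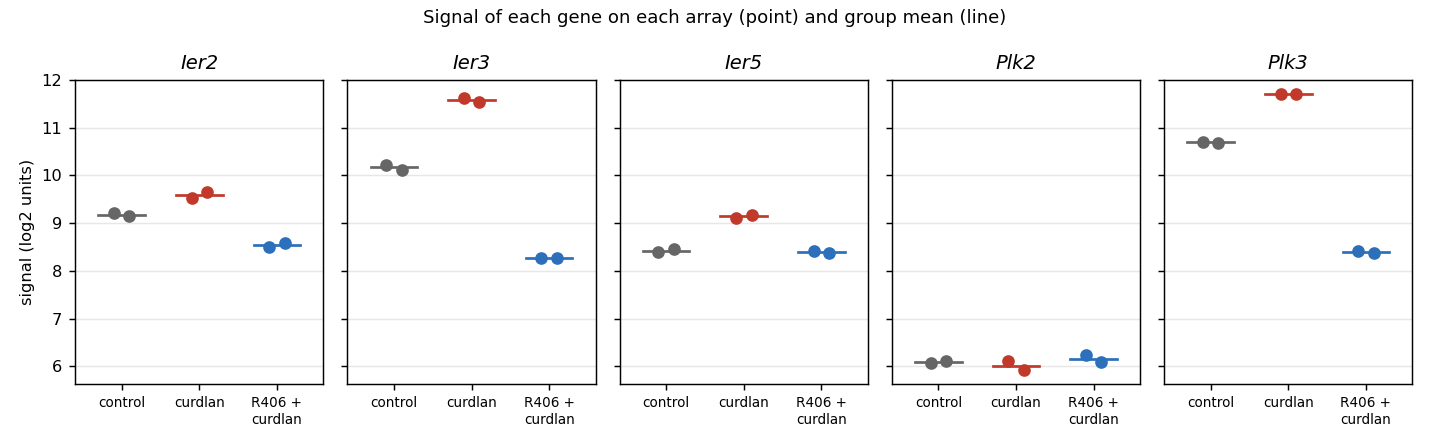
Log2 signal (vertical axis) of Ier2, Ier3, Ier5, Plk2 and Plk3 in control, curdlan and R406 plus curdlan cells. Points are the 2 arrays of a group and lines their mean. Ier3 and Plk3 are highest with curdlan and lowest under R406. Ier5 under R406 lies near its control level, and Plk2 lies between 5.93 and 6.24 on all arrays. Panels hold different probe sets, so heights are not compared between genes.

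Ier3 (probe set 10831077) had the largest rise with curdlan of the 5 genes. Its signals were 10.21 and 10.12 in control, 11.61 and 11.54 in curdlan and 8.28 and 8.27 in R406 plus curdlan arrays. The 3 groups did not overlap, and both R406 arrays lay below both control arrays by at least 1.85 log2 units. The rise with curdlan was 1.41 ± 0.0548 (SE; limma adjusted p = 0.00215), the 19th largest among 14506 named genes. Under R406 the difference from curdlan alone was -3.30 ± 0.0548 (limma adjusted p = 7.88e-05), a 9.87-fold change and the 12th largest fall. It was also lower than in control cells, at -1.89 ± 0.0548 (limma adjusted p = 0.000987), a 3.71-fold change and the 7th largest fall in that comparison. Ier3 was thus expressed above its R406 level already in cells that had received no curdlan.

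Ier5 (probe set 10768814) rose with curdlan and lay near its control level in cells given R406 before curdlan. Its signals were 8.40 and 8.45 in control, 9.12 and 9.17 in curdlan and 8.42 and 8.37 in R406 plus curdlan arrays. The curdlan arrays stood above the other 4, which overlapped with each other. The rise was 0.72 ± 0.0504 (limma adjusted p = 0.00988) and the fall under R406 -0.75 ± 0.0504 (limma adjusted p = 0.00348). R406 plus curdlan and control differed by -0.03 ± 0.0504, with a 95% interval of -0.16 to 0.10 (limma adjusted p = 0.778). The rise of Ier5 with curdlan did not pass in any of the 6 fits that left out 1 array, at limma adjusted p-values from 0.0554 without an R406 array to 0.103 without curdlan replicate 2, while its size stayed between 0.69 and 0.74. In a fit of only the 4 arrays compared, the same as one without an R406 array, the limma adjusted p was 0.0554. With a replicate block the limma adjusted p was 0.0511.

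Ier2 (probe set 10806685) showed the smallest difference with curdlan among the 3 IER genes. Its signals were 9.21 and 9.14 in control, 9.52 and 9.64 in curdlan and 8.51 and 8.59 in R406 plus curdlan arrays. Curdlan and control arrays did not overlap, but the difference of 0.40 ± 0.0669 did not pass (limma adjusted p = 0.0681). It passed after quantile normalization (adjusted p = 0.0459), with an intensity trend (0.0115) and in a fit restricted to the brighter 14607 probe sets (0.014). Under R406 Ier2 fell by 1.03 ± 0.0669 relative to curdlan alone, a 2.04-fold change (limma adjusted p = 0.0031). It was also lower than in control cells by a difference of -0.63 ± 0.0669 (limma adjusted p = 0.0228). This last call was lost in all 6 fits that left out 1 array. Those without a curdlan array equal the fit of the 4 arrays compared (limma adjusted p = 0.0518). The call was also lost with a replicate block (limma adjusted p = 0.072). The difference lay between -0.67 and -0.59 across alternatives.

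Plk3 (probe set 10878938), whose product acts in stress responses and entry into the cell cycle, had the most uniform replicates of the 5 genes in control and curdlan cells. Its signals were 10.70 and 10.69 in control, 11.71 and 11.70 in curdlan and 8.41 and 8.38 in R406 plus curdlan arrays. The 3 groups did not overlap, and the gap between the R406 arrays and the control arrays was 2.28 log2 units. Plk3 rose by 1.02 ± 0.0438 with curdlan (limma adjusted p = 0.00248), the 34th largest rise among named genes. Its difference under R406 from curdlan alone was -3.31 ± 0.0438, a 9.94-fold fall (limma adjusted p = 6.09e-05). Relative to control cells the difference was -2.30 ± 0.0438, a 4.91-fold fall (limma adjusted p = 0.000513) and the 4th largest of all named genes. Of its 9.94-fold range, then, a factor of 2.02 lay between curdlan and control and a factor of 4.91 between control and R406 plus curdlan.

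Plk2 (probe set 10812954), which in rat neurons is induced by activity and acts on synapses, did not pass in any comparison. Its signals were 6.08 and 6.11 in control, 6.11 and 5.93 in curdlan and 6.24 and 6.08 in R406 plus curdlan arrays. The groups overlapped in all 3 comparisons, and 27.9% of all probe sets had a mean signal no higher than that of Plk2. The difference with curdlan was -0.08 ± 0.0868, with a 95% interval of -0.30 to 0.14 (limma adjusted p = 0.762), whereas the interval for Plk3 ran from 0.91 to 1.13. The difference under R406 from curdlan alone was 0.14 ± 0.0868, with an interval of -0.08 to 0.36 (limma adjusted p = 0.417). Since background was not measured here, a probe set that reports little signal and a transcript that is hardly expressed cannot be told apart for Plk2.

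**Figure D3:**
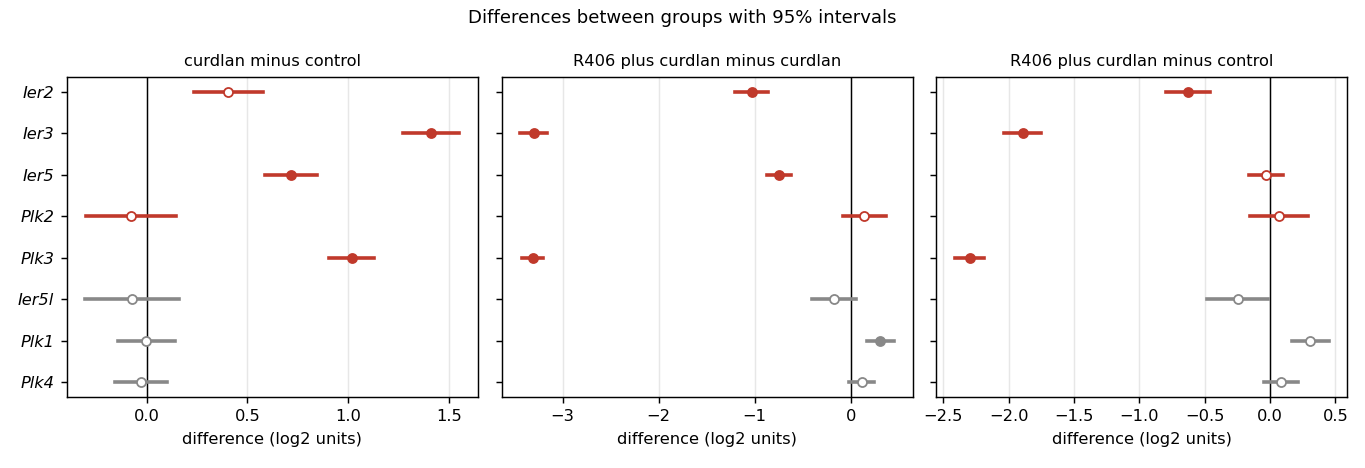
Differences between groups in log2 units (horizontal axis) for the 5 genes (red) and 3 related genes (grey), with 95% intervals from the limma fit. Filled points had an adjusted p under 0.05. Ier3 and Plk3 lie near -3.3 in the R406 against curdlan panel, and Plk2 lies close to 0 in all 3 panels.

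The 2 most responsive genes, Ier3 and Plk3, moved in the same direction, with Plk3 lower than Ier3 relative to control on every treated array. The log2 difference Plk3 minus Ier3, set to 0 at its control mean, was -0.42 and -0.36 on the curdlan arrays and -0.39 and -0.42 on the R406 plus curdlan arrays. The step from curdlan to R406 was thus the same for both genes within the spread of the arrays, while the step from control to curdlan was smaller for Plk3. Plk3 minus Plk2, on the same scale, was 1.01 and 1.18 with curdlan and -2.42 and -2.30 under R406. The IER genes also moved by different amounts. Ier3 minus Ier2 was 1.10 and 0.91 with curdlan and -1.22 and -1.31 under R406, and Ier2 minus Ier5 was -0.35 and -0.27 with curdlan and -0.66 and -0.53 under R406, where control arrays lay within 0.0612 of 0. Relative to control, Ier2 therefore lay lower than Ier5 on every array of both stimulated groups.

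For scale, 2.13% of all named genes were called with curdlan, 9.18% under R406 against curdlan and 3.02% under R406 against control. Of 5 relatives of the families listed, 3 were measured, and Ier3ip1 and Plk5 were not analysed here. With curdlan 0 of the 3 were called in the limma fit, with differences of -0.07 for Ier5l, a gene related to Ier5, -0.03 for Plk4, which drives centriole duplication, and -0.0006 for the mitotic kinase Plk1. By unadjusted p under 0.05, also 0 of the 3 differed with curdlan. Under R406 Plk1 rose by 0.31 ± 0.0551 relative to curdlan alone (limma adjusted p = 0.0384), from 12.57 and 12.50 to 12.89 and 12.80, and it did not pass in any of the 6 fits that left out 1 array. Plk4, at 0.11 ± 0.0511, and Ier5l, at -0.18 ± 0.091, did not pass (limma adjusted p = 0.284 and 0.341). Between R406 plus curdlan and control 0 of the 3 were called in the limma fit and 2 had an unadjusted p under 0.05, Plk1 at 0.31 ± 0.0551 and Ier5l at -0.25 ± 0.091 (limma adjusted p = 0.0662 and 0.224), and the arrays of the groups did not overlap for either gene. Plk1 and Plk3 therefore differed from curdlan in opposite directions under R406.

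The nearest expression profiles were sought among the other 14505 named genes by the Euclidean distance over the 6 arrays, each gene set to 0 at its control mean. The profile of Ier3 lay nearest to Socs1 (distance 0.198), a feedback inhibitor of JAK signalling, then to the cytokine gene Osm (0.384) and the ERK phosphatase gene Dusp5 (0.468), with Plk3 at rank 4 (0.8). For Plk3 the nearest gene of all was Ier3, followed by Dusp4 at rank 2 (0.838), which encodes another MAP kinase phosphatase, Socs1 at rank 3 (0.98) and Osm at rank 4 (1.07). No gene outside the 5 was as near to Plk3 as Ier3 was. Dusp4 differed by 0.49 with curdlan and by -2.52 under R406 from curdlan alone, a smaller step than Plk3 in both. The curdlan rises of Dusp4, Lfng, Chsy1 and Gpr35 did not pass in fits without 1 array (limma adjusted p from 0.0503 to 0.148).

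Ier5 had closer neighbours by this distance. The distance is not scaled to the size of a gene's differences, so it tends to be smaller for genes that moved less. Lfng, a glycosyltransferase gene of the Notch pathway, lay at 0.0884, the chondroitin synthase gene Chsy1 at 0.123 and the receptor gene Gpr35 at 0.136, all with a curdlan difference of 0.70 to 0.77 and an R406 difference of -0.74 to -0.82 from curdlan alone. The genes nearest to Ier2 were the RNA modification genes Pus3 (0.126) and Cmtr2 (0.181) and the demethylase gene Alkbh1 (0.186). Ier2 and Ier5 ranked 40 and 183 in distance from Ier3. For Plk2, whose profile is nearly flat, the nearest were Or1e1, Ivd and Mr1, at 0.0557 to 0.0718. These distances describe 6 arrays in 3 groups, and genes that share them share nothing else by this measure.

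**Figure D4:**
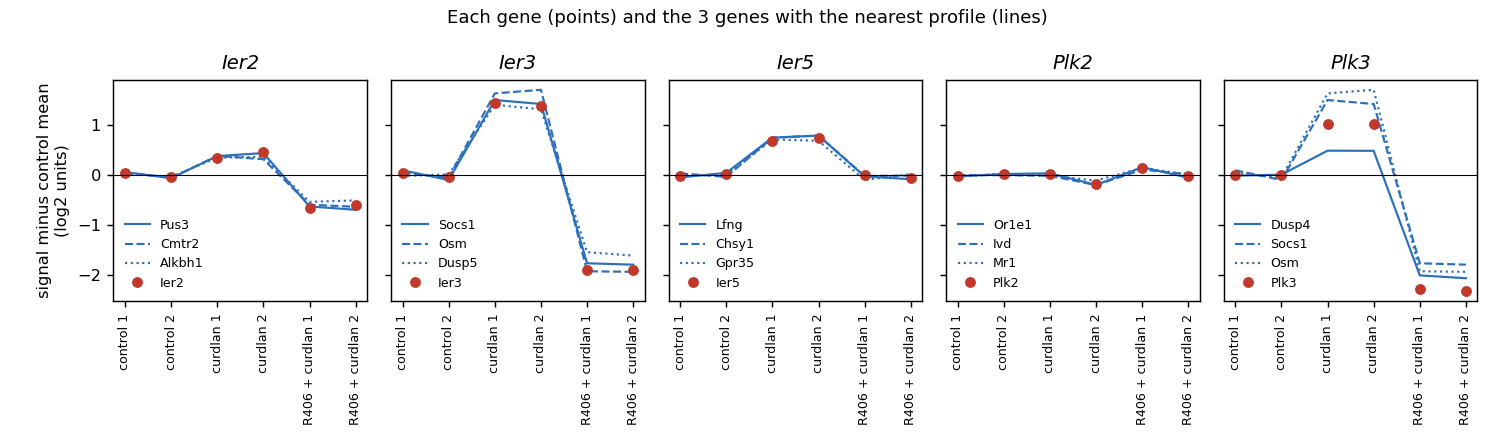
Signal minus the control mean in log2 units (vertical axis) on each of the 6 arrays (horizontal axis) for each of the 5 genes (points) and the 3 genes outside the 5 with the nearest profile (lines). The lines lie on the points for Ier2, Ier5 and Plk2, and Plk3 ends below its 3 nearest genes under R406.

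Genes of the pathways that act on these 5 or that their products act on were read from lists of names. As a scale for the counts below, 2.13% of all named genes were called with curdlan and 9.18% under R406 relative to curdlan alone. In a list of 19 genes of SRF, its ternary complex factor partners and the ERK cascade, 11 were measured. Srf itself, which encodes the factor that binds CArG boxes, rose by 0.73 ± 0.0509 with curdlan (limma adjusted p = 0.00988), and it was the 1 gene called of the 11. That rise did not pass in any of the 6 fits without 1 array (limma adjusted p from 0.0578 to 0.092). Under R406 Srf fell by 1.17 ± 0.0509 relative to curdlan alone (limma adjusted p = 0.00118), and Rps6ka5, which encodes the CREB and histone kinase MSK1, rose by 0.48 ± 0.0578 (limma adjusted p = 0.0134), a call lost without any curdlan or R406 array (adjusted p from 0.0566 to 0.103). The median difference of the list was 0.03 with curdlan and 0.01 under R406, beside -0.01 and -0.0019 over all probe sets. None of the 4 promoter windows searched held a CArG box, and whether SRF acts on any of the 5 genes was not tested.

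Among 36 measured other immediate early genes, 13 rose and 3 fell with curdlan, and 3 rose and 21 fell under R406 relative to curdlan alone. The shares called were 44.4% and 66.7%, beside 2.13% and 9.18% of all named genes. The median difference of the 36 was 0.16 with curdlan and -0.54 under R406. The orphan receptor genes Nr4a2 at 3.51 ± 0.0931 and Nr4a3 at 3.48 ± 0.096 and the zinc finger gene Egr3 at 3.23 ± 0.0702 rose more with curdlan than any of the 5 genes. Egr2 at 1.53 ± 0.187, whose SE spans the value of Ier3, and Csrnp1 at 1.41 ± 0.0454 were close to Ier3, and Atf3 fell by 1.71 ± 0.135. Under R406, Egr1 at -4.68 ± 0.0792, Dusp6 at -3.98 ± 0.0706, Egr3 at -3.97 ± 0.0702, Myc at -3.93 ± 0.0807 and Nr4a3 at -3.63 ± 0.096 fell by more than Ier3 and Plk3. The adjusted p of these genes in the limma fit lay between 7.88e-05 and 0.0374. Without 1 array the number called of the 36 was 6 to 8 with curdlan and 12 to 23 under R406.

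Ier5, Plk2 and Plk3 are also known as targets of p53 in human cells, and 19 of 24 listed p53 pathway genes were measured. With curdlan 1 rose and 0 fell, namely Tp53inp1 at 0.45 ± 0.0488 (limma adjusted p = 0.0294, and from 0.115 to 0.159 without 1 array), and the list's median difference was -0.01. Under R406, 3 fell and 3 rose relative to curdlan alone, with a median of -0.0081. The shares called in the 2 comparisons were 5.26% and 31.6%, beside 2.13% and 9.18% of all named genes. The growth arrest genes Gadd45a and Cdkn1a, the latter the inhibitor of cyclin-dependent kinases p21, fell by 1.25 ± 0.0487 and 0.74 ± 0.0697, and the nuclease gene Aen fell by 0.59 ± 0.0436 (limma adjusted p = 0.000829, 0.00754 and 0.00435). Rrm2b, a ribonucleotide reductase subunit gene, rose by 0.38 ± 0.0747 (limma adjusted p = 0.0498). Tp53inp1 rose by a further 0.29 ± 0.0488 and Bbc3 rose by 0.26 ± 0.0521 (limma adjusted p = 0.0328 and 0.0498). Without 1 array, 1 to 4 of the 19 were called under R406.

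Genes around the known partners of Ier5 were listed as well. Of all named genes, 2.13% were called with curdlan and 9.18% under R406 relative to curdlan alone. Of 14 measured genes of HSF1 and its heat shock targets, 0 were called with curdlan in the limma fit and 2 by an unadjusted p under 0.05, with differences between -0.17 and 0.19. Under R406 2 fell relative to curdlan alone, the chaperone genes Dnaja1 at -0.26 ± 0.0455 and Hsph1 at -0.24 ± 0.0457 (limma adjusted p = 0.0382 and 0.045), and 0 of the 14 were called in any of the 6 fits that left out 1 array. All 8 genes of the PP2A core and B55 subunits were measured, with 0 called in the limma fit in each of the 3 comparisons, 1, 2 and 1 by an unadjusted p under 0.05, and differences between -0.17 and 0.16.

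Of 12 listed partners and substrates of Plk2 and Plk3, 10 were measured. Cdc25a, which encodes a phosphatase that activates cyclin-dependent kinases, rose by 0.32 ± 0.0429 with curdlan (limma adjusted p = 0.0435) and was the 1 gene called. Under R406, 2 fell and 4 rose relative to curdlan alone, with a median difference of 0.25. Cdc25a fell by 0.54 ± 0.0429 while its relative Cdc25b rose by 0.52 ± 0.0445 (limma adjusted p = 0.00529 and 0.00607). Sass6, a centriole gene, rose by 0.41 ± 0.0586, and Tsc1, an inhibitor of mTORC1, rose by 0.31 ± 0.0442 (limma adjusted p = 0.0214 and 0.0225). Without 1 array 0 were called with curdlan and 0 to 3 under R406.

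**Figure D5:**
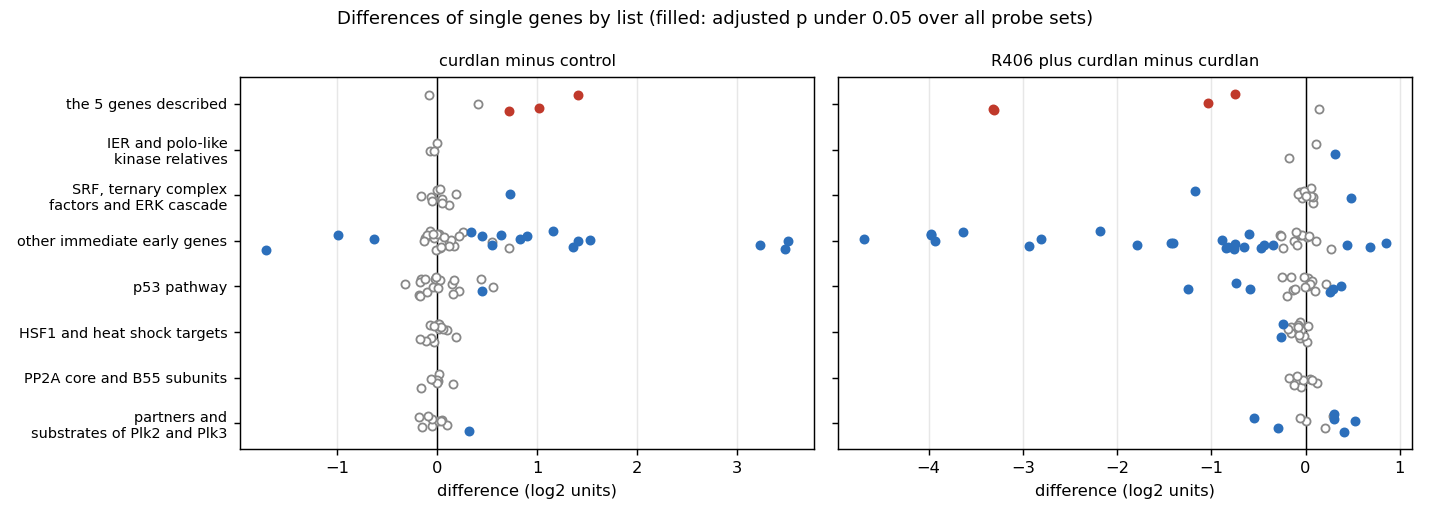
Differences in log2 units (horizontal axes) of the 5 genes (top row) and of each measured gene in 7 lists (lower rows), for curdlan minus control and for R406 plus curdlan minus curdlan. Filled points had an adjusted p under 0.05 over all probe sets, and vertical scatter within a row has no meaning. Other immediate early genes spread farthest in both panels, and the PP2A row has 0 filled points.

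The 5 genes lie on 5 chromosomes, Ier2 on 19, Ier3 on 20, Ier5 on 13, Plk2 on 2 and Plk3 on 5, by the RefSeq table of GRCr8. The nearest measured protein-coding gene on either side was read for each. For scale, 2.13% of all named genes were called with curdlan and 9.18% under R406 relative to curdlan alone. With curdlan 0 of these 10 neighbours were called in the limma fit, against 2 by an unadjusted p under 0.05, the largest difference being 0.32 ± 0.0477 for Flot1, next to Ier3 (limma adjusted p = 0.0573). Under R406 Flot1 fell by 0.29 ± 0.0477 relative to curdlan alone (limma adjusted p = 0.0318), and Kif2c, the nearest measured gene after Plk3 and a mitotic kinesin gene, rose by 0.42 ± 0.0458 (limma adjusted p = 0.0106), against the direction of Plk3. Leaving out 1 array, Flot1 passed in 0 of 6 fits, and Kif2c passed without either control array but not without a curdlan or R406 array (adjusted p from 0.0564 to 0.0957). These neighbours were looked up after the values of the 5 genes were known.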

How the data were processed

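Total RNA of 6 samples was measured on rat arrays after biotin labelling of cDNA, per the labels' protocols. The authors deposited log2 signals, 1 value per array for each probe set. The submitters' processing notes name Affymetrix Expression Console. The sources used here do not state its version, how it corrected background, summarised and normalized, or the genome build. That the scale is log2 was judged from array maxima of 14.37 to 14.41. Precision is limited by the number of arrays, 2 per group.

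The 29214 probe sets were used without filter or further normalization. The platform annotation gave 1 gene symbol for 15310, several for 323 and none for 13581. Symbols were updated through gene identifiers to RefSeq (GRCr8), and a gene was read from its brightest probe set.

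All 6 arrays entered 1 limma fit (R 4.3.3, limma 3.58.1) of 3 groups, with 3 residual and 2.16 prior degrees of freedom and Benjamini-Hochberg adjustment over all probe sets. On simulated data its mean estimates were compared with planted differences, which does not check its p-values or calls. Alternatives were quantile normalization, median centring, a filter at the median signal, 4-array fits, a replicate block, an intensity trend, averaged probe sets, stricter call rules and leaving out each array. The labels number the arrays of each group 1 and 2 without saying that a number marks a shared culture.

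The 5 genes and the 11 gene lists (163 entries, 140 measured) were chosen with earlier results of these data known. Beyond the 5 genes and their relatives, up to 4 called genes per list and comparison with the largest difference are named, with 3 nearest profiles per gene. Some further called genes of the lists are named beside these. Of the mast cell markers Tph1 rose with curdlan and fell under R406, at 0.72 ± 0.0792 and -0.69 ± 0.0792 (limma adjusted p = 0.0295 and 0.0123). Without 1 array 0 mast cell markers were called with curdlan and 0 to 1 under R406, and 5, 3 and 3 of the 13 had an unadjusted p under 0.05 in the 3 comparisons. Of the macrophage and neutrophil markers Itgam fell under R406 by 0.36 ± 0.0661 (limma adjusted p = 0.0408), after a difference of 0.33 ± 0.0661 with curdlan (limma adjusted p = 0.102). Without 1 array 0 of these markers were called, and 1, 1 and 0 of the 10 had an unadjusted p under 0.05. The lymphocyte markers had 0 called members in the limma fit in all 3 comparisons and 1, 0 and 0 by an unadjusted p under 0.05, and the fibroblast and epithelial markers 0 and 1, 2 and 2.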

Additional observations from a re-analysis of the deposited data

How the results depend on the processing

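For the 5 genes, the number called stayed within 1.5 times the main count in every alternative run. The alternatives are not all distinct. Leaving out an array of the group that is not compared gives the same result as the fit of the 4 arrays compared. Averaging probe sets leaves the differences of the 5 genes unchanged, since each had 1 probe set. With curdlan it was 3, and 2 to 4 across alternatives. Under R406 against curdlan it was 4, and 3 with a change of at least 2-fold. Under R406 against control it was 3, and 2 or 3 across alternatives. Leaving out each array gave 2, 4 and 2 in the 3 comparisons. Ier3 and Plk3 passed in all 3 comparisons in each of 13 alternative fits, and Ier2 and Ier5 in each under R406 against curdlan. The difference of Plk2, never called, ran from -0.1692 to 0.015 with curdlan and from -0.0126 to 0.1433 under R406 against control in the fits without 1 array, where leaving out the second curdlan array or the first R406 array turned its sign. Among genes that were not called, the curdlan difference ran from -0.1462 to 0.0042 for Ier5l, from -0.0719 to 0.0182 for Plk4 and from -0.0369 to 0.0357 for Plk1 without 1 array, and that of Plk1 was 0.0123 after quantile normalization and 0.0038 after median centring. Changes of other named genes that were followed singly, which were not all of those named, kept their direction and call in 495 of 703 alternatives. They lost the call in 196, gained it in 6 and turned in 6, those just given.

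With a replicate block, 2, 4 and 2 of the 5 genes were called. The deviations of same-numbered arrays from their group means correlated at -0.115, -0.00454 and 0.113 between groups. With 2 arrays per group this does not show whether same-numbered arrays share a culture, which the labels do not state. Over all probe sets the calls with curdlan, 465, fell to 102 with the block, 68 in the 4-array fit, 32 to 68 without 1 array, 78 at an adjusted p under 0.01 and 68 at 2-fold, and rose to 1557 with an intensity trend and 1572 above the median signal. Under R406 against curdlan 2118 became 1129, 1232, 210 to 1232, 561, 170, 3767 and 3717 in the same order, and against control 652 became 62, 182, 15 to 182, 66, 54, 2341 and 2278. Fits without 1 array have fewer residual degrees of freedom, and a group left with 1 array is assumed to vary like the others. Median centring shifted differences by at most 0.0248. No detection limit was used here.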
